A study of Mus musculus with 11 samples.

Results

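On mouse bead arrays, 209 of 45281 probes measured a transcript that rose from embryonic stem cells to embryoid bodies in a control line and rose only part of the way in embryoid bodies without connexin43 and connexin45. Each of these 209 members was detected on all 7 embryoid body arrays. In the control line each rose by at least 1.5 on the log2 scale (2.83-fold). Deleted embryoid bodies stood at 0.25 to 0.75 of that rise, measured from control stem cells. Detection means a deposited detection p-value under 0.05, which ranks a probe against the negative control beads of its array. The fraction is (d - a)/(c - a), where a, c and d are the mean log2 normalized intensities of control stem cells, control embryoid bodies and deleted embryoid bodies. These values chose the members, so the levels of those 3 groups are given as a description. Deleted stem cells took no part in the choice.

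The study profiled Cx43/45 flox ESC (2 arrays), Cx43/45 del ESC (2 arrays), Cx43/45 flox EB at day 6 (3 arrays) and Cx43/45 del EB at day 6 (4 arrays). Both lines are male C57BL/6 mouse embryonic stem cells. The flox line, called control here, is described only by strain and sex in the cell line label, and its titles and the design text give the floxed connexin genes. The del line, called deleted here, lacks exon 3 of both connexin genes and carries lacZ under the Cx43 promoter and eGFP under the Cx45 promoter, so the lines also differ in 2 reporters. Stem cells grew on a layer of mouse embryonic fibroblasts with leukemia inhibitory factor, and embryoid bodies formed in hanging drops without added factor. Each embryoid body array came from a pool of about 300 bodies, and each stem cell array from 1 culture well. One line stands for each genotype. The design text calls the replicates biological and does not say whether cultures or differentiations were separate, so p-values measure only the spread between these samples.

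Embryonic stem cells that aggregate without leukemia inhibitory factor leave the pluripotent state and form embryoid bodies. Their outer layer becomes primitive endoderm, an epithelium that lays down a basement membrane, while inner cells go on to the germ layers. Connexins are the subunits of gap junctions, channels through which neighbouring cells pass ions and small molecules. The series title names primitive endoderm formation as the process of interest. No source used here pairs the probe identifiers with genes, so members are named by identifier, roles cannot be given, and neither the labelled cell types nor the deleted genes could be checked by marker genes. Probe sequences and positions were not used here. In such bulk samples, fewer cells of a type and less RNA per cell cannot be told apart.

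Between 39.7% and 43.0% of all probes were detected per array, and mean intensity ran from 381 to 503 units. Array background, the median deposited intensity of probes with a detection p-value of 0.4 to 0.6, was 106 to 111 units on deleted and 112 to 114 units on control embryoid body arrays. One library stood apart for the members. Replicate 1 of the deleted stem cells lay well above replicate 2 on most of them, so each result that rests on deleted stem cells is given with both arrays and with each left out.

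The members were the middle part of a continuous range. Of 14518 probes detected on all embryoid body arrays, 588 rose by at least 1.5 in the control line. Among these, 127 stood below a fraction of 0.25, 209 within the bounds and 252 above 0.75. The histogram of fractions had its tallest bars between 0.8 and 0.95, above the upper bound, and no gap at either bound. Of the rising probes, 48 had a fraction below 0, so they stood lower in deleted embryoid bodies than in control stem cells, and 70 had one above 1. Among the members, 88 lay below 0.5 and 121 at or above it, with a median fraction of 0.536 and quartiles of 0.405 and 0.664.

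**Figure D1:**
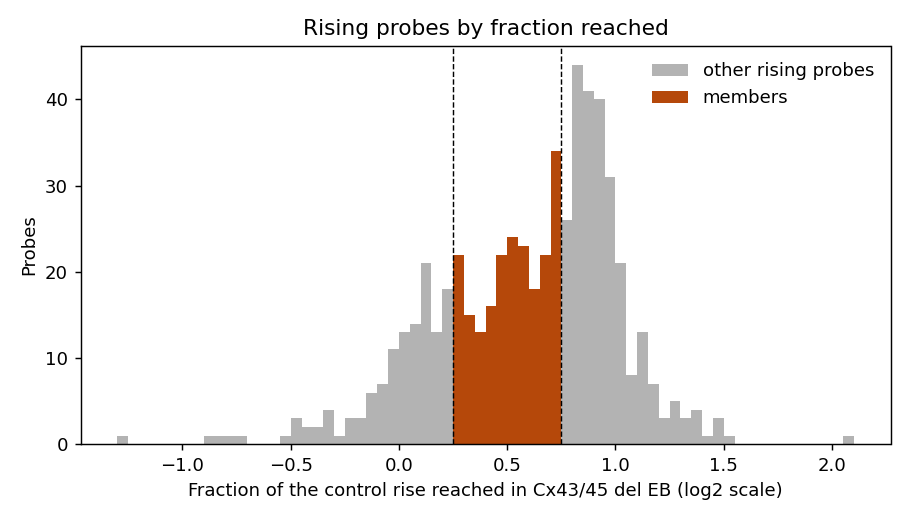
Number of rising probes (y axis) by the fraction of the control rise reached in deleted embryoid bodies (x axis, log2 scale, bins of 0.05), with the 209 members coloured, the other rising probes in grey and dashed lines at 0.25 and 0.75. The bars run on past both bounds without a gap and are tallest above the upper one.

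The bounds divided probes of nearly equal fraction or rise. At the lower bound, ILMN_2638354 (fraction 0.2501) and ILMN_3065164 (0.259) were inside, and ILMN_2630459 (0.249) and ILMN_3156010 (0.247) outside. At the upper bound, ILMN_1235122 (0.748) and ILMN_2705166 (0.748) were inside, and ILMN_1218668 (0.7504) and ILMN_2973897 (0.755) outside. At the bound on the rise, ILMN_2767596 and ILMN_2648230 were inside at 1.502 each, and ILMN_1243885 and ILMN_2778122 were outside at 1.4998 and 1.4995.

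The members were dim to moderately bright in control stem cells and about 4 times as bright in control embryoid bodies. Their group mean in control stem cells ran from 111 to 2461 normalized units with a median of 288. In control embryoid bodies it ran from 371 to 28107 units, with a median of 1223, and in deleted embryoid bodies from 165 to 5893 units, with a median of 578. Taken per array, the median level of the members was 255 and 309 units on the control stem cell arrays, 1128 to 1221 on the control embryoid body arrays, and 548 to 612 on the deleted ones. The 3 groups did not overlap in this median, but the rule asked for this order in every member, so nothing is read from it. The rise in the control line had a median of 1.90 on the log2 scale and reached 6.81, and 125 members rose by 1.5 to 2, 64 by 2 to 3 and 20 by 3 or more. From control stem cells to deleted embryoid bodies the difference had a median of 1.04 and a range of 0.39 to 3.28.

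The 20 members with the largest control rises stood lower on the axis than the rest. Their median fraction was 0.380, against 0.545 for rises of 1.5 to 2 and 0.573 for rises of 2 to 3. Both quantities share the control arrays, and the comparison was not tested. Over all 209 members the rise and the fraction correlated at Pearson r = -0.13 and Spearman rho = -0.13, a description across probes that share the arrays.

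ILMN_2708477 had the largest control rise. It read 208 and 301 units in control stem cells, 25072, 29624 and 29624 units in control embryoid bodies, and 1632, 2352, 1838 and 989 units in deleted embryoid bodies. The last 2 control values are equal because quantile normalization gives equal ranks equal values. The control embryoid bodies stood 112-fold above control stem cells and the deleted ones 6.50-fold, a fraction of 0.397. All 4 deleted arrays lay far below the 3 control arrays and above all 4 stem cell arrays, of which the deleted ones read 163 and 254 units. The deleted bodies were 17.2-fold below the control bodies, which shows how large the remaining gap of a member can be on the linear scale.

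ILMN_2655795 came next and stayed closer to the stem cell level. It read 192 and 239.9 units in control stem cells, 5121, 8514 and 10015 in control bodies, and 400.5, 681, 559.9 and 626 in deleted bodies. Its fraction was 0.267, with no overlap between the 3 groups. ILMN_1221157 rose from 395 and 437 units to 10073, 13510.0 and 14417 in control bodies, and the deleted bodies read 2222, 3018, 2093 and 1463. It stood at a fraction of 0.480, again without overlap. Deleted stem cells read 154 and 188 units for ILMN_2655795 and 304 and 420.3 for ILMN_1221157. In none of these 3 probes did a deleted stem cell array exceed the higher control stem cell array.

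The next 3 members by rise had a different course in the deleted line. ILMN_2691192 read 172 and 197 units in control stem cells and 5388, 2706 and 5239.5 in control bodies. In deleted bodies it read 1736, 931, 2523 and 2524 units, a fraction of 0.725, and in deleted stem cells 1027 and 376. Replicate 1 of the deleted stem cells was thus above replicate 2 of the deleted embryoid bodies. ILMN_2691187 and ILMN_1219275 followed it closely, with deleted stem cells at 905 and 334 units and at 890.3 and 356 units, and fractions of 0.716 and 0.694. Deleted bodies were not called lower than control ones for ILMN_2691192 (limma adjusted p = 0.064) or ILMN_2691187 (limma adjusted p = 0.062). For ILMN_1219275 the call was narrow (limma adjusted p = 0.048). Over the 11 arrays these 3 probes correlated pairwise at r = 0.998 to 0.999, pairs singled out after their values were seen. Whether they target the same transcript was not tested, so they may not be 3 separate members.

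**Figure D2:**
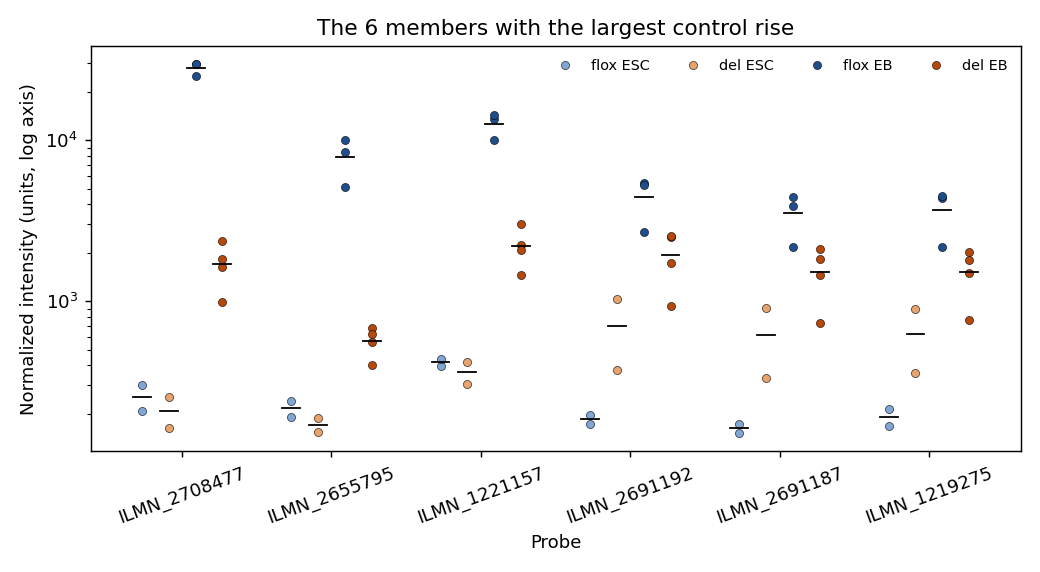
Normalized intensity on a log axis (y) of the 6 members with the largest control rise (x), with 1 point per array coloured by group and a bar at each group mean. In the 3 probes on the left both deleted stem cell arrays lie near the control stem cells, and in the 3 on the right replicate 1 reads 890.3 to 1027 units.

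The 4 brightest members in deleted embryoid bodies had control rises of 1.64 to 2.12 on the log2 scale, around the median of all members. Brightness also depends on the probe, so levels are not compared between probes. ILMN_2527769 averaged 5893 ± 419 units (SD, n = 4) in deleted and 8689 ± 1669 (SD, n = 3) in control bodies, from 1760.1 and 2410.2 in control stem cells. ILMN_1238360 stood at 5367 ± 514 units (SD, n = 4) in deleted and 10104 ± 1542 (SD, n = 3) in control bodies. ILMN_1237216, which correlated with ILMN_1238360 at r = 0.995, had 5242 ± 434 against 9610.1 ± 1417 units. ILMN_2845272 had 5065 ± 401 against 6979 ± 708 units. For each of these 4 probes every deleted array was below every control array, and the deleted bodies were 1.38-fold to 1.88-fold lower. The rule used this contrast. It passed for ILMN_1238360 (limma adjusted p = 0.0015), ILMN_1237216 (limma adjusted p = 0.0030) and ILMN_2845272 (limma adjusted p = 0.034). ILMN_2845272 did not pass under median scaling (limma adjusted p = 0.14) or neqc (limma adjusted p = 0.089). ILMN_2527769 did not pass (limma adjusted p = 0.13). Deleted stem cells set ILMN_2527769 apart, with 5673 units on replicate 1 and 2665 on replicate 2. The first of these lay inside the span of the deleted bodies, which read 6269, 6242, 5519 and 5541 units. In ILMN_2845272 the deleted stem cells read 2806 and 1889 units, on either side of the control stem cells at 2317 and 2136.

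Members with a steep rise could stop close to the midpoint. Among rises of at least 3, ILMN_3143078 stood at a fraction of 0.507. It read 407 and 542 units in control stem cells, 4214, 4890.1 and 4818 in control bodies, and 1533, 1522, 1426 and 1512 in deleted bodies. Its 4 deleted arrays spanned barely 100 units while the control arrays lay about 3 times higher. ILMN_2518412, at 0.512, was less even, with 3752, 2721, 2430.3 and 2337 units in deleted bodies against 7288, 8788 and 7399.7 in control bodies. ILMN_2711267 stood at 0.414, with 971, 1097, 871 and 582 units in deleted bodies against 3421, 4071 and 5645 in control bodies. The other member nearest the midpoint by this measure was ILMN_1221157, described above. These are midpoints on the log2 scale only.

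On the linear scale the same members had reached less. This follows largely from the change of scale. For a partial rise the linear fraction is lower than the log2 one, and more so for larger rises. The fraction computed from mean normalized intensities had a median of 0.372 and quartiles of 0.252 and 0.484, and 52 of the 209 members fell below 0.25. It was 0.132 at the median for the 20 largest rises. A log2 fraction near the middle therefore left most of the control increase in units missing in those members.

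Within the deleted embryoid bodies the arrays placed the members alike. The median position over the members, where 0 is the control stem cell mean and 1 the control embryoid body mean, was 0.542, 0.504, 0.505 and 0.558 on the 4 deleted arrays, a mean of 0.527 ± 0.027 (SD, n = 4). Single members ranged more widely within an array, as the bounds of the rule allow, with quartiles of 0.375 and 0.688 on replicate 1. The SD of a member over the 4 deleted arrays had a median of 0.19 on the log2 scale, against 0.11 over all 23268 tested probes. In control bodies the same medians were 0.26 and 0.13.

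**Figure D3:**
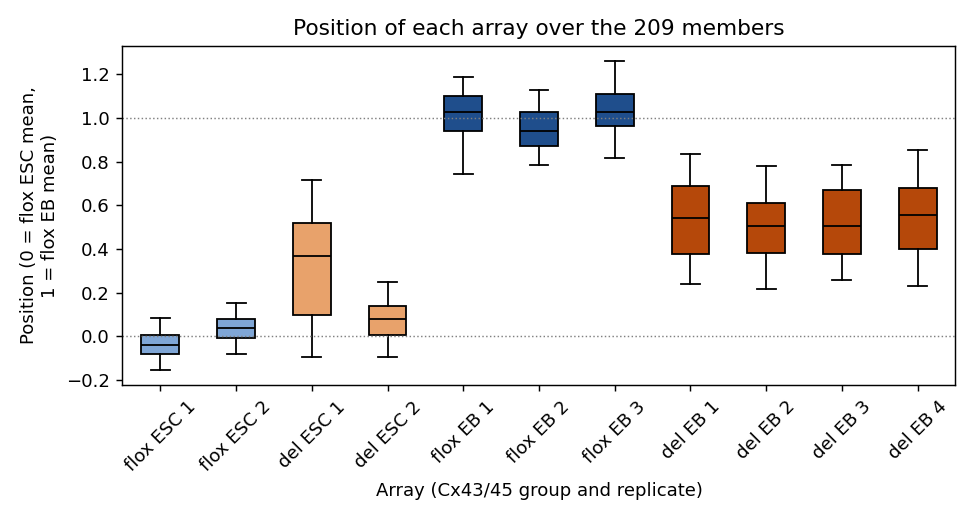
Position of each array over the 209 members (y axis, 0 at the mean of control stem cells and 1 at the mean of control embryoid bodies) for all 11 arrays (x axis). Boxes span the quartiles with the median as a line, and whiskers the 5th to 95th percentile. The 4 deleted embryoid body arrays have medians of 0.504 to 0.558, and the deleted stem cell arrays of 0.368 and 0.077.

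The steadiest and the least steady members show the range of array agreement. ILMN_2626190 read 1544, 1588, 1598 and 1618 units in deleted bodies against 2463, 3576 and 2936 in control bodies. ILMN_2934522 read 251, 263, 251 and 247 units in deleted bodies against 2003, 1644 and 1999 in control bodies, from 119 and 131 units in control stem cells, where it was detected on 1 of 2 arrays. Array background makes up much of these low readings, so its fraction of 0.260 is limited by background. At the other end, ILMN_2450735 read 5077, 11304 and 411 units in control bodies and 4308, 3008, 706 and 879 in deleted bodies. Its groups overlapped fully, and it met the rule through 2 control arrays while the third lay below both control stem cell arrays, at 1108 and 875 units.

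Because the members were chosen on these arrays, each array was also left out in turn, the members were chosen again on the remaining ones, and the left-out array was placed on them. Left-out deleted embryoid body arrays stood at a median of 0.544, 0.514, 0.498 and 0.558, or 0.529 ± 0.027 (SD, n = 4). Left-out control embryoid body arrays stood at 0.959, 0.869 and 1.004, or 0.944 ± 0.069 (SD, n = 3). The 4 deleted values did not overlap with the 3 control values. Of the newly chosen members, 68.8% to 83.7% lay between 0.25 and 0.75 on the left-out deleted array, against 7.46% to 20.2% on a left-out control embryoid body array. Left-out control stem cell arrays stood at -0.042 and 0.095. Between 188 and 258 members were chosen this way, sharing 170 to 200 with the 209. All arrays had been normalized together, so the left-out array was not wholly separate. The other arrays of its group still chose the members under the same rule. The order of the groups is therefore not independent of the rule and is given as a description.

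**Figure D4:**
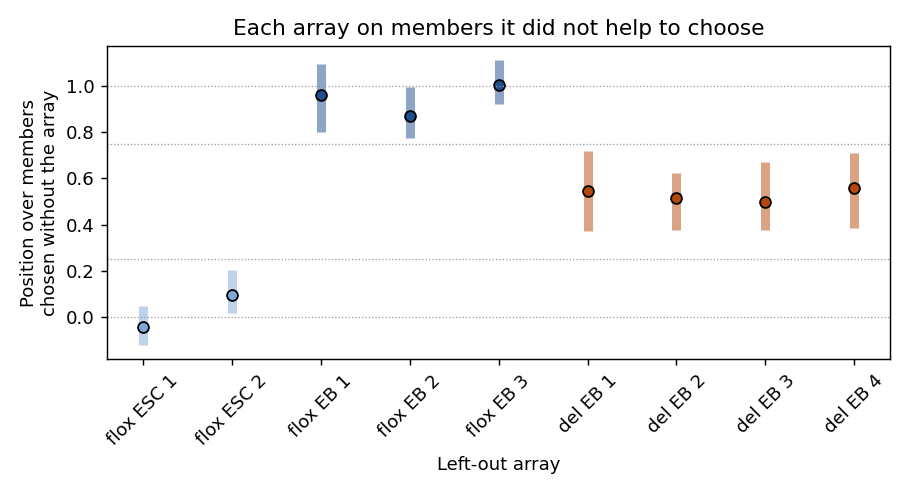
Position of each of 9 arrays (x axis) over members chosen without it (y axis, 0 and 1 as in the axis of control stem cells to control embryoid bodies). Points are medians and bars span the quartiles over members. Deleted embryoid body arrays lie at 0.498 to 0.558 and control embryoid body arrays at 0.869 to 1.004.

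Deleted stem cells, which the rule did not use, already differed in the members' direction on one array. The median position was 0.368 on replicate 1 and 0.077 on replicate 2, a mean of 0.223 ± 0.205 (SD, n = 2). On replicate 1, 130 members (62.2%) stood at 0.25 or more and 60 at 0.5 or more. On replicate 2 these numbers were 11 and 0. Replicate 1 read higher than replicate 2 for 175 members, or 83.7%, against 47.2% of all tested probes. This was not particular to the members. Among the other rising probes it held for 242 of 252 above a fraction of 0.75 and 65 of 127 below 0.25.

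**Figure D5:**
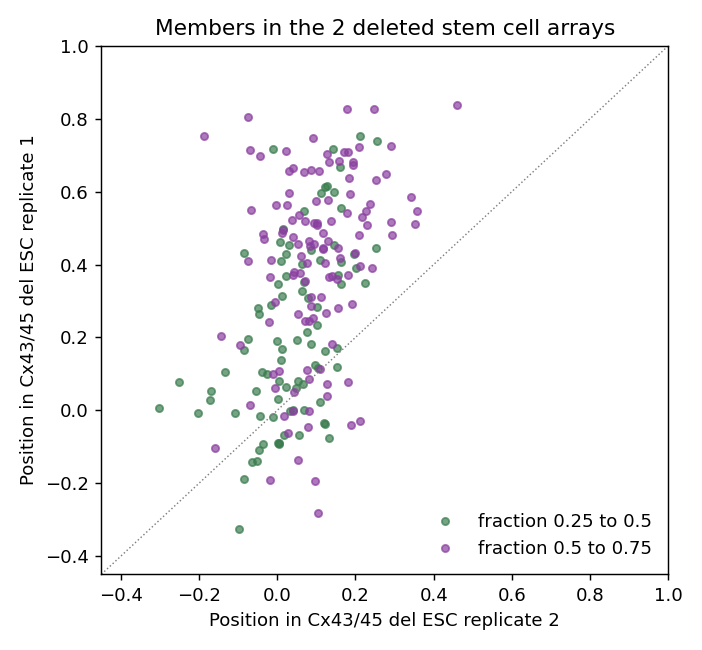
Position of each of the 209 members on deleted stem cell replicate 1 (y axis) and replicate 2 (x axis), where 0 is the control stem cell mean and 1 the control embryoid body mean, coloured by whether the fraction in deleted embryoid bodies was below 0.5 or not. The dotted line marks equal positions. Most points lie above it, 175 of 209.

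In the mean of both arrays, 181 members were higher in deleted than in control stem cells (86.6%, against 46.6% of all tested probes) and 28 lower, with a median difference of 0.41 on the log2 scale against -0.01 over all tested probes. Both deleted arrays exceeded both control arrays for 107 members (51.2%, against 17.9% of all tested probes) and lay below them for 7 (3.35%, against 20.5%). Among the other rising probes, deleted stem cells were higher for 98.0% above a fraction of 0.75 and 67.7% below 0.25. Both deleted arrays exceeded both control arrays for 212 of the 252 above 0.75 and 40 of the 127 below 0.25. The control stem cells of this comparison also entered the rule, which favours probes that read low there. With limma, 0 of the 209 members passed an adjusted p of 0.05 in this comparison, where 0.0% of all tested probes passed. The same count was 0 with a trended robust fit and 0 with array weights. At an unadjusted p under 0.05, 62 members (29.7%, against 8.99% of all tested probes) differed. All 62 were higher and 0 lower, against 4.84% and 4.15% of all tested probes. The call rests on 1 array. Without deleted stem cell replicate 2, 42 members were higher at the adjusted threshold (20.1%, against 1.71% of all tested probes), with the lone array assumed to vary like the other groups, and without replicate 1 there were 0.

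The members with the largest stem cell difference were the 3 alike probes described above. ILMN_2691187 was higher in deleted stem cells by 1.76 ± 0.55 (SE) on the log2 scale and ILMN_2691192 by 1.75 ± 0.56 (SE), each with a limma adjusted p of 0.51. ILMN_1219275 was higher by 1.57 ± 0.54 (SE, limma adjusted p = 0.51). At the other end stood ILMN_1254450 at -0.38 ± 0.20 (SE, limma adjusted p = 0.59), ILMN_2711267 at -0.38 ± 0.29 (SE, limma adjusted p = 0.72) and ILMN_2655795 at -0.34 ± 0.32 (SE, limma adjusted p = 0.78). ILMN_1254450 read 1038 and 1379 units in deleted against 1479 and 1638 in control stem cells, with both deleted arrays below both control ones. None of these 6 differences passed.

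Members that went further in deleted embryoid bodies also tended to stand further along in deleted stem cells. For the 121 members with a fraction of 0.5 or more, the median position was 0.455 on deleted stem cell replicate 1 and 0.093 on replicate 2. For the 88 members below 0.5 it was 0.177 and 0.036. The neighbouring rising probes continued the order, with 0.036 and 0.035 below a fraction of 0.25, and 0.635 and 0.187 above 0.75. Across the 209 members the fraction correlated with the position on replicate 1 at r = 0.37 and on replicate 2 at r = 0.25. All of these positions share the control arrays as their axis, and none of the differences was tested.

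Measured from their own stem cells, the members rose less far in the deleted line. The difference between deleted embryoid bodies and deleted stem cells, divided by the control rise, had a median of 0.331, against the 0.536 measured from control stem cells. With replicate 1 as the only deleted stem cell array the median was 0.184, and 40 members stood lower in deleted embryoid bodies than on that array. With replicate 2 alone it was 0.478, and 0 members did. With the mean of both arrays, 143 members lay within 0.25 to 0.75 and 65 below 0.25, of which 9 were below 0. How much of the partial rise lay within the deleted line thus depended on the stem cell array. The lower value from the own baseline was not particular to the members. Among rising probes above a fraction of 0.75 the median was 0.511 with both arrays, against 0.920 from control stem cells. Of these, 198 of 252 lay within 0.25 to 0.75. Below a fraction of 0.25 the medians were 0.008 and 0.065, and 5 of 127 lay within the bounds.

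In limma, 100 of the 209 members rose from deleted stem cells to deleted embryoid bodies (47.8%, against 10.5% of all tested probes), and 0 fell (against 11.8%). The rule required the deleted embryoid bodies to stand above control stem cells, so these shares are not independent of it. Without deleted stem cell replicate 2 the count was 38 (18.2%, against 4.82%), and without replicate 1 it was 130 (62.2%, against 9.21%). Of the 6 members with the largest control rise, ILMN_2708477 rose by 3.00 ± 0.31 (SE, limma adjusted p = 0.00019), ILMN_1221157 by 2.57 ± 0.26 (SE, limma adjusted p = 0.00016) and ILMN_2655795 by 1.71 ± 0.27 (SE, limma adjusted p = 0.0020). ILMN_2691192 rose by 1.53 ± 0.49 (SE, limma adjusted p = 0.048). ILMN_2691187 differed by 1.37 ± 0.48 (SE, limma adjusted p = 0.069) and ILMN_1219275 by 1.34 ± 0.47 (SE, limma adjusted p = 0.067), which did not pass. The higher values sat on all 4 embryoid body arrays in ILMN_2708477, ILMN_1221157 and ILMN_2655795, without overlap with the deleted stem cells. For all members, 126 had no such overlap (60.3%, against 23.2% of all tested probes).

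The contrasts that the rule used are given for completeness. In limma, 208 members rose in the control line (18.3% of all tested probes did), the exception being the uneven ILMN_2450735. Deleted embryoid bodies were lower than control ones for 162 members (11.6% of all tested probes were), 81 of them at least 2-fold (2.56%). Under median scaling 118 were lower (8.51%). The 3 control arrays lay above all 4 deleted ones for 181 (16.1%), and all 4 deleted embryoid body arrays above both control stem cell arrays for 205 (27.3%). Control stem cells, deleted embryoid bodies and control embryoid bodies followed in that order without overlap for 178 members (3.84%). Nothing is read from these shares, since the rule asked for them. Of the 162 members called lower, 87 were also called rising in the deleted line (41.6% of all members, against 0.851% of all tested probes) and 75 were not (35.9%, against 10.7%). Another 13 were called rising but not lower (6.22%, against 9.64%), and 34 neither (16.3%, against 78.8%). The rule used 3 of the 4 groups behind these joint calls, and nothing is read from them. Below a fraction of 0.5, 87 of 88 members were called lower and 36 rising in the deleted line. At 0.5 or above, 75 of 121 were called lower and 64 rising. Of all tested probes 11.6% were called lower and 10.5% rising. The fraction that splits the members also bears on both calls, so nothing is read from this split.

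The interaction subtracts the deleted minus control difference of stem cells from that of embryoid bodies. It asks whether the lines rose unequally when each was measured from its own stem cells. It was negative past the limma threshold for 146 members (69.9%, against 5.96% of all tested probes) and positive for 0 (against 5.61%). The median over the members was -1.31 on the log2 scale, against 0.02 over all tested probes. The rule used 3 of the 4 groups, so these shares are not independent of it. The count depended on single stem cell arrays and on the scaling. It was 53 without control stem cell replicate 1 (2.29% of all tested probes), 78 without deleted stem cell replicate 1 (3.4%), 163 without deleted stem cell replicate 2 (7.72%) and 74 under median scaling (3.5%).

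Members were also ranked by likeness to ILMN_2708477, the one with the largest rise, as Pearson r of log2 levels over the 11 arrays. The most alike were ILMN_1221157 (r = 0.994), ILMN_2711267 (r = 0.993) and ILMN_3115796 (r = 0.986). ILMN_3115796 was dim, at 133 and 151 units in control stem cells, 407, 465 and 469 in control bodies, and 218, 202, 218 and 209 in deleted bodies. It rose by 1.65 in the control line with a fraction of 0.350, and its 3 groups did not overlap. With the neqc background correction the same rise was 3.05. Over the 208 other members r had a median of 0.898 and ran from 0.370 to 0.994. The rule selects for a shared course over the groups, so high values were built in.

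Most members were already detected on the stem cell arrays. Whether the fibroblast layer contributed RNA to these arrays was not tested. Detection held on both control stem cell arrays for 178 members, on 1 for 18 and on neither for 13. On deleted stem cells it held on both arrays for 195, on 1 for 9 and on neither for 5. Per array, 39.7% to 40.6% of all probes were detected in control and 40.6% to 42.5% in deleted stem cells. The rule asked for detection on all 7 embryoid body arrays, which favours detection here, so nothing is read from these counts. Of the rising probes above a fraction of 0.75, 233 of 252 were detected on both control stem cell arrays. Below 0.25, 103 of 127 were. On both deleted stem cell arrays, 249 and 107 were, so detection was not particular to the members. For the 13 undetected members the control rise starts at array background, and its size is limited by that background.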

How the data were processed

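RNA of 11 samples was hybridized to Illumina MouseWG-6 version 2 bead arrays. The authors read the arrays out with GenomeStudio 2011.1 (Gene Expression module 1.9.0), per the labels, here the series' design text. The deposited intensity values are not normalized between arrays, and no source used here says whether background was subtracted. Beside each stands a deposited detection p-value in steps of 1 in 936. The submitters' processing notes name limma.

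Intensities were quantile normalized over all 11 arrays, a step the design text also names, and log2 transformed. Tests kept the 23268 of 45281 probes detected (p-value under 0.05) on 2 or more arrays and left out 22013. In R 4.3.3, limma 3.58.1 fitted a model of 4 group means with its default moderation, Benjamini-Hochberg adjustment over all 23268 probes and a threshold of 0.05. The fit was tested on simulated data. Array background of 106 to 126 units remains in the values and compresses differences of dim probes. The number of arrays limits the precision. No 2 arrays were identical.

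The members and lists were chosen with earlier results of these data known. Named probes were the 6 members with the largest rise, the 4 brightest in deleted embryoid bodies, the 4 nearest a fraction of 0.5 among rises of at least 3, the 3 highest and 3 lowest in deleted against control stem cells, the 2 most and 2 least variable, the 3 most like the first, and 2 on either side of each bound. Marker gene lists could not be used, since probes were not paired with genes. Alternatives were median scaling, neqc, other filters, bounds and moderation, array weights, a fit of the groups compared, a replicate block and each array left out.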

Additional observations from a re-analysis of the deposited data

Results flagged for a closer look

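The genotype difference differed between embryoid bodies and stem cells for 146 members (69.9%) by the interaction test in limma, which 5.96% of all tested probes passed in the negative direction. The rule made deleted embryoid bodies lower than control ones, which favours a negative value, so neither the count nor the direction is independent of how members were chosen. Without control stem cell replicate 1 the count was 53. Among the 24 named members 17 passed, all negative on the log2 scale. The values were -3.81 for ILMN_2708477, -3.43 for ILMN_2655795, -3.16 for ILMN_2934522, -3.0 for ILMN_2691192, -3.0 for ILMN_2691187, -2.86 for ILMN_1219275 and -2.67 for ILMN_3143078. Smaller differences were -2.35 for ILMN_2518412, -2.34 for ILMN_1221157, -1.94 for ILMN_2711267, -1.82 for ILMN_3065164, -1.68 for ILMN_2626190, -1.46 for ILMN_2527769, -1.37 for ILMN_2638354, -1.24 for ILMN_1238360, -1.23 for ILMN_1237216 and -1.13 for ILMN_3115796.

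In deleted embryoid bodies, 3 of 26 measures examined held a distant value among the 4 arrays, judged by the gap as a share of the whole range, on log2 levels for probes. Chance alone marks about 1 measure in 20. ILMN_1235122 read 503 units on replicate 1 and 381 to 394 on the others, a gap of 0.872 of the log2 range. ILMN_2767596 read 1045 units on replicate 1 and 822 to 854 elsewhere (0.838 of the log2 range). ILMN_1238360 read 4608 units on replicate 3 and 5541 to 5742 elsewhere (0.838 of the log2 range, near the critical value of 0.829).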

How the results depend on the processing

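The number of members followed the rule's settings. It was 575 with neqc background correction (183 of the 209 among them), 535 at a rise of at least 1, 84 at a rise of at least 2 and 346 with each line's own stem cells as baseline (143 shared). Median scaling gave 223 members (178 shared), the linear fraction 228 (157 shared) and group medians 212 (181 shared). Leaving out 1 array gave 188 to 258. The median position of deleted embryoid bodies was 0.578 under median scaling, 0.581 with neqc and 0.351 on linear intensities, and 0.517 to 0.545 with 1 array left out. Members rising in the deleted line numbered 38 to 130 and those with a negative interaction 53 to 163 with 1 array left out, and the latter 74 under median scaling. Members differing between stem cell groups numbered 0 to 42 with 1 array left out, 42 without deleted replicate 2 and 1 without control replicate 2. With the replicate block 157 members were lower in deleted bodies, 209 rose in the control line and 78 rose in the deleted line. A negative interaction held for 128, and 0 differed between stem cells. The shares of all tested probes under this fit are not given here, so nothing is read from these counts. Deviations of same-numbered arrays from their group means correlated at -0.016 in stem cells and at 0.077, -0.009 and 0.188 in embryoid bodies. Embryoid body arrays of different number correlated at -0.293 to 0.341. With 2 arrays in each stem cell group the deviations mirror each other. The check therefore cannot decide whether replicate numbers pair the arrays. Among named members, ILMN_2450735 turned to 0.22 for deleted minus control bodies without control replicate 2, from -0.77, and to -2.17 without control replicate 3. Control replicates 2 and 3 read 11304 and 411 units for this probe, the highest and the lowest control value. Leaving either out therefore moved the control mean. Why these arrays differed was not tested.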
